A study of Mus musculus with 6 samples.

Results

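Flt3, Il7r and a set of further genes that mark the first steps towards the lymphoid lineages were compared between bone marrow LSK cells labelled Gfi1 knockout and wild type. The set held 10 genes, Flt3, Il7r, Dntt, Rag1, Rag2, Cd27, Ltb, Ccr9, Il2rg and Cd52. It was chosen by gene symbol with earlier results of these data known. Its counts beside those of all probe sets therefore describe the set and do not test it. Every non-control probe set that the array's annotation pairs with exactly 1 of these symbols was taken, which gave 14 probe sets for 9 genes out of 22626 non-control probe sets (12393 genes named by a probe set with 1 symbol). No probe set was paired with Il2rg alone in the annotation used, so Il2rg was not analysed here. Of the 14 probe sets, 9, standing for 7 genes, were bright enough to be tested, and the remaining 5 are given by their signals.

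LSK cells are lineage-negative, Sca-1-positive, Kit-positive cells, a fraction that holds haematopoietic stem cells and multipotent progenitors. Each sample was hybridised to 1 single-colour Affymetrix array after 2 rounds of amplification from 10 ng of RNA. There were 3 arrays labelled Gfi1 knockout and 3 labelled wild type, numbered 5, 7 and 8 in each group. No treatment is named in the labels, and strain, age, the knockout allele and the number of mice per sample are unknown here. p-values therefore measure the spread between these samples, which may be partly technical. Gfi1 encodes a zinc finger repressor, and its single probe set was not lower on the knockout arrays, with signals of 692, 1163 and 1737 on knockout 5, 7 and 8 against 632, 608 and 723 on wild type 5, 7 and 8. Whether that probe set lies in the deleted part is not given, so the group is called knockout-labelled and all directions rest on the labels. Kit, by which the cells were sorted, had signals of 3512 to 4669 on the knockout-labelled and 5871 to 7774 on the wild-type arrays. Kit fell by 0.71 ± 0.17 (SE) on the log2(signal + 16) scale (limma adjusted p = 0.0381), and among single arrays left out the call held only without wild type 5 (up to 0.131). Ly6a, which encodes Sca-1, was not analysed here.

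Within the LSK fraction, high levels of the receptor tyrosine kinase FLT3 mark progenitors that have lost most megakaryocyte and erythroid potential and can still form lymphoid and myeloid cells. These lymphoid-primed progenitors begin to transcribe lymphoid genes at low levels before commitment, among them the interleukin-7 receptor, the recombination-activating genes and terminal deoxynucleotidyl transferase. Interleukin-7 then supports lymphoid progenitors through its receptor, and the RAG proteins cut antigen receptor genes at their recombination signals.

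Several early lymphoid genes were lower in the knockout-labelled group. Of the 7 genes tested by their brightest probe set, 4 fell (Flt3, Il7r, Dntt and Ccr9) and 0 rose by limma at a Benjamini-Hochberg adjusted p under 0.05, against 2.19% of all 13575 tested probe sets called lower and 1.44% called higher. At an unadjusted p under 0.05, 6 of the 7 were lower and 0 higher, against 10.5% and 9.08% of all tested probe sets. Ccr9 reached the brightness limit only through its wild-type arrays and so had to differ to be tested, and among the other 6 genes 3 fell, with a median of -1.18. The median difference of the 7 genes was -1.19 on the log2(signal + 16) scale, where that of all tested probe sets was -0.01. Over the 9 genes with a probe set, 8 had all 3 knockout-labelled arrays below all 3 wild-type arrays, the exception being Rag1. These 8 include Rag2 and Ltb, which were too dim to be tested, so no share over all tested probe sets matches this count. For Rag2 all 3 knockout-labelled arrays and wild type 8 were at or below the control level, so its order rests partly on signals that were not measurable. Of the 9 tested member probe sets 7 were lower without overlap, the brightest of Ccr9 among them, against 12.1% of all tested probe sets. Less RNA per cell and fewer cells that express these genes cannot be told apart in such sorted bulk samples.

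The promoters of the 4 genes that fell are shown as the 250 bases before the annotated transcription start. Whether Gfi1 binds them, or has a part in the differences, was not tested. They are from RefSeq (build GRCm38.p6) and are written on the gene's strand, 5′ to 3′, and capitals mark the AATC core of Gfi1 sites, which reads GATT on the opposite strand. The windows are chr5:147400490-147400739 on the minus strand for Flt3, chr15:9529877-9530126 on the minus strand for Il7r, chr19:41029025-41029274 on the plus strand for Dntt and chr9:123766961-123767210 on the plus strand for Ccr9.
Flt3: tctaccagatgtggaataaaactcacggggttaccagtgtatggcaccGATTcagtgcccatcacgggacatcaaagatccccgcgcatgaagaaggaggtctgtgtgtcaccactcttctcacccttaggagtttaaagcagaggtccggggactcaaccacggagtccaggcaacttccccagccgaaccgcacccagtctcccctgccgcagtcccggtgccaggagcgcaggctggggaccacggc
Il7r: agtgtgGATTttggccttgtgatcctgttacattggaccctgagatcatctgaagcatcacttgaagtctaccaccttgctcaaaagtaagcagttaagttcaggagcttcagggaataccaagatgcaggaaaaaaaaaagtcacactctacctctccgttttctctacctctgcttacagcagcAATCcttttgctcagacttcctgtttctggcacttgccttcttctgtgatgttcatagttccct
Dntt: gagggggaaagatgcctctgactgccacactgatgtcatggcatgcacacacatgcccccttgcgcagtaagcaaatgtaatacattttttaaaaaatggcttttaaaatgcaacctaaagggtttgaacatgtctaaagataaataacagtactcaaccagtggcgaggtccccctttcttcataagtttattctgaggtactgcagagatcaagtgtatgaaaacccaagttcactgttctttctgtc
Ccr9: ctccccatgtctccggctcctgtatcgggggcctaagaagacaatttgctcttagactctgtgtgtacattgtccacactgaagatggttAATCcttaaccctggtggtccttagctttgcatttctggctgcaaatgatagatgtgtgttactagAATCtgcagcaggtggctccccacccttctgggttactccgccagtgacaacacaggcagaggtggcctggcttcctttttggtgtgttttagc

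The Flt3 window held 1 match, beginning 202 bases upstream of the start, and the Il7r window 2, beginning 244 and 64 bases upstream. The Ccr9 window also held 2, beginning 160 and 94 bases upstream, and the Dntt window 0. Promoters were found for 9 of the 10 members, and 6 of these 9 (Flt3, Il7r, Rag1, Rag2, Ccr9 and Il2rg) held AATC on either strand. Among all 32851 windows of the same length 69.0% did, so the share among the members is close to the background. The longer AATCAC was found in Rag1 among the members and in 9.14% of all windows. GGAA, the core of ETS factor sites, was present in all 9 member windows and in 93.4% of all windows, and the E-box CANNTG in 8 of 9 and in 66.2%. Each motif was searched on both strands, AATCAC contains AATC, and a match is only a run of letters.

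Flt3, the receptor for FLT3 ligand, had signals of 5847, 6125 and 3976 on wild type 5, 7 and 8. The knockout-labelled arrays 5, 7 and 8 gave 2242, 2029.5 and 2626. The groups did not overlap, and wild type 8 was the lowest wild-type array. Flt3 fell by 1.19 ± 0.19 (SE) on the log2(signal + 16) scale, from 5316 ± 1169 to 2299 ± 302 (SD, n = 3 each; limma adjusted p = 0.00515).

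Il7r encodes the alpha chain of the interleukin-7 receptor, which pairs with the common gamma chain encoded by Il2rg. Its brighter probe set (1448575_at) had signals of 2933, 2391 and 1365 on wild type 5, 7 and 8 and of 649, 596 and 381 on the knockout-labelled arrays in the same order. The lowest wild-type array lay above the highest knockout-labelled array by more than the range of the knockout-labelled group. The brighter probe set fell by 1.97 ± 0.28 (SE), from 2230 ± 796 to 542 ± 142 (SD, n = 3 each; limma adjusted p = 0.00217). The second probe set (1448576_at) was dimmer, with 527, 251 and 149 on the wild-type arrays and 62.0, 57.6 and 75.6 on the knockout-labelled arrays. Here all 3 knockout-labelled arrays were at or below the control level, which is the brightest of 27 Bacillus control probe sets on each array and ran from 100.2 to 162. Against that level the second Il7r probe set was at least 2.01-fold lower, and it was below the brightness limit for testing.

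**Figure D1:**
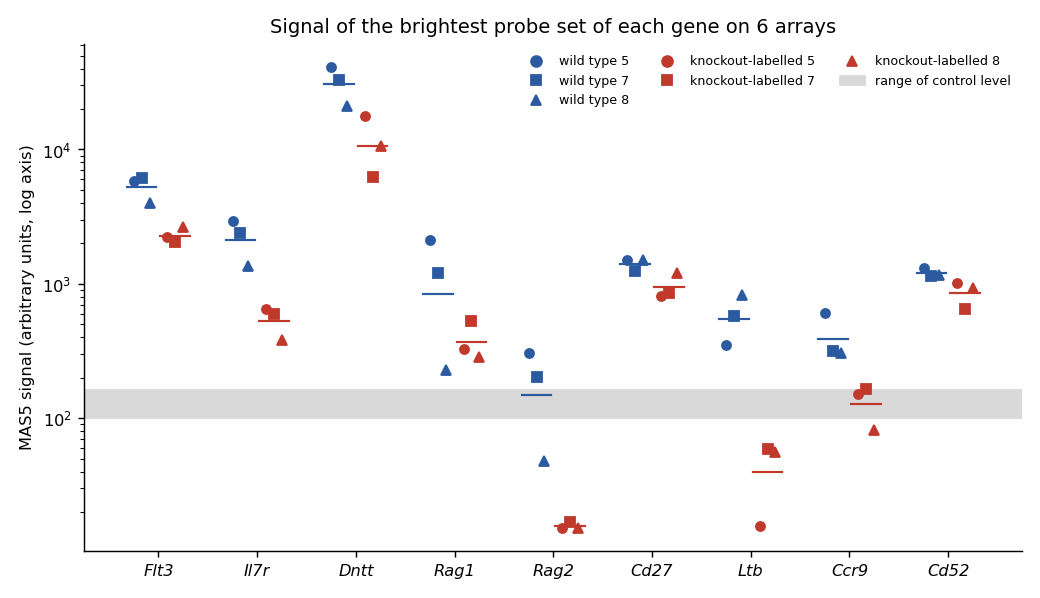
MAS5 signal (arbitrary units, log axis) of the brightest probe set of the 9 measured genes on each array; symbols give the sample number, bars the group mean taken on the log2(signal + 16) scale, and the grey band the range of the control level over the 6 arrays. The red knockout-labelled points lie below the blue wild-type points for 8 of the 9 genes, while for Rag1 wild type 8 lies below all 3 knockout-labelled arrays. For Rag2 the red points and that of wild type 8 are at or below the control level.

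Dntt encodes terminal deoxynucleotidyl transferase, which adds bases without a template to the joints of rearranged antigen receptor genes. It had 3 probe sets, all above the control level on every array. The brightest (1449757_x_at) had 41083, 32892 and 20945 on wild type 5, 7 and 8 and 17623, 6280.5 and 10690.4 on the knockout-labelled arrays. The groups did not overlap, but knockout 5 was nearer to wild type 8 than to the other knockout-labelled arrays. This probe set fell by 1.53 ± 0.30 (SE), from 31640.1 ± 10127 to 11531 ± 5718 (SD, n = 3 each; limma adjusted p = 0.0162). The call was lost without knockout 8 (0.0823) and without wild type 7 (0.0730), and also without the brightness filter (0.0758) and with eBayes without trend (0.0748). The suffix x marks probe sets that can detect other transcripts too.

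The second Dntt probe set (1450545_a_at) was steadier among the knockout-labelled arrays. It read 34767, 29122 and 16107 on wild type 5, 7 and 8 and 8871, 6913 and 7491 on the knockout-labelled arrays, and it fell by 1.71 ± 0.23 (SE; limma adjusted p = 0.00142). It passed with each of the 6 arrays left out. The third (1420166_at) read 2190.2, 1889.6 and 1368 on wild type and 1576, 768 and 708 on knockout-labelled arrays, so that knockout 5 lay above wild type 8. Its difference was -0.90 ± 0.28 (limma adjusted p = 0.100), and in a paired fit, which takes the sample number as a block, it passed (0.0309).

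Rag1 and Rag2 encode both parts of the V(D)J recombinase and lie next to each other on chromosome 2, transcribed from opposite strands. Rag1 read 2133, 1203 and 227 on wild type 5, 7 and 8 and 327, 527 and 284 on the knockout-labelled arrays. Wild type 8 was the lowest of all 6 arrays, and wild type 5 and 7 lay above all 3 knockout-labelled arrays. The difference was -1.17 ± 0.57 (SE; limma adjusted p = 0.277, paired fit 0.130). Leaving out wild type 8 gave -2.08 (adjusted p = 0.00254), and leaving out any other single array gave an adjusted p between 0.282 and 0.651.

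Rag2 read 304, 204 and 48.0 on wild type 5, 7 and 8 and 15.2, 16.9 and 15.3 on the knockout-labelled arrays. Wild type 8 was again the lowest wild-type array and was at or below the control level, as were all 3 knockout-labelled arrays. Only 2 of the 3 wild-type arrays therefore measured Rag2. With the knockout-labelled arrays set to the control level, their group was 1.07-fold lower. That is not a firm bound, as it takes the signal of wild type 8 as read. Rag2 was below the brightness limit. In a fit over all 22626 probe sets its difference was -2.38 with an adjusted p of 0.0761, a size that rests on signals below the control level.

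Cd27 and Ltb belong to the TNF receptor and ligand families. CD27 is a co-stimulatory receptor that multipotent and lymphoid progenitors also carry, and Ltb encodes lymphotoxin beta, a membrane ligand needed for lymph node formation. Cd27 read 1502, 1253 and 1494 on wild type 5, 7 and 8 and 818, 853 and 1207 on the knockout-labelled arrays. The groups did not overlap, with knockout 8 just below wild type 7. The difference was -0.57 ± 0.21 (SE), with means of 1416 ± 142 and 959 ± 215 (SD, n = 3 each; limma adjusted p = 0.143), and it passed under none of the 18 alternative settings (adjusted p from 0.0996).

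Ltb read 353, 571 and 818 on wild type 5, 7 and 8 and 15.8, 58.8 and 56.3 on the knockout-labelled arrays. All 3 wild-type arrays lay above their control level and all 3 knockout-labelled arrays below it, so Ltb was at least 4.08-fold lower in the knockout-labelled group. The order among the wild-type arrays was the reverse of that for Il7r and Rag1, with wild type 8 the highest. The mean log2 signal of Ltb fell short of the brightness limit. In the fit over all probe sets it passed (limma adjusted p = 0.0129), and so it did where the limit was set on the mean of the linear signals (0.00150), a setting added after seeing the data and under which Ltb qualified through its wild-type arrays.

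Ccr9 encodes the receptor for the chemokine CCL25, which guides progenitors to the thymus. Its brightest probe set (1427419_x_at) read 607, 316 and 303 on wild type 5, 7 and 8 and 151, 165 and 81.9 on the knockout-labelled arrays. The groups did not overlap, although 2 of the 3 knockout-labelled arrays were at or below the control level. This probe set reached the brightness limit only through its wild-type arrays and so had to differ to be tested. It fell by 1.49 ± 0.35 (SE), from 409 ± 172 to 133 ± 44.6 (SD, n = 3 each; limma adjusted p = 0.0333). Leaving out knockout 5 (0.0554), knockout 7 (0.0552), knockout 8 (0.129) or wild type 7 (0.0854) ended that call, and without wild type 5 the probe set fell below the brightness limit. The call also ended without the brightness filter (0.108) and with eBayes without trend (0.0541). The other Ccr9 probe sets were at or below the control level on all 6 arrays and give no direction. As its suffix is x, the brightest probe set can detect other transcripts too. Whether its signal comes from Ccr9 alone was not tested.

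Cd52 encodes a small GPI-anchored glycoprotein of lymphocytes and other leukocytes. It read 1317, 1141 and 1173 on wild type 5, 7 and 8 and 1009.96, 649 and 929.5 on the knockout-labelled arrays. The groups did not overlap, and the gap between knockout 5 and wild type 7 was smaller than the range within either group. The difference was -0.50 ± 0.21 (SE; limma adjusted p = 0.207), and it passed under none of the 18 alternative settings.

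**Figure D2:**
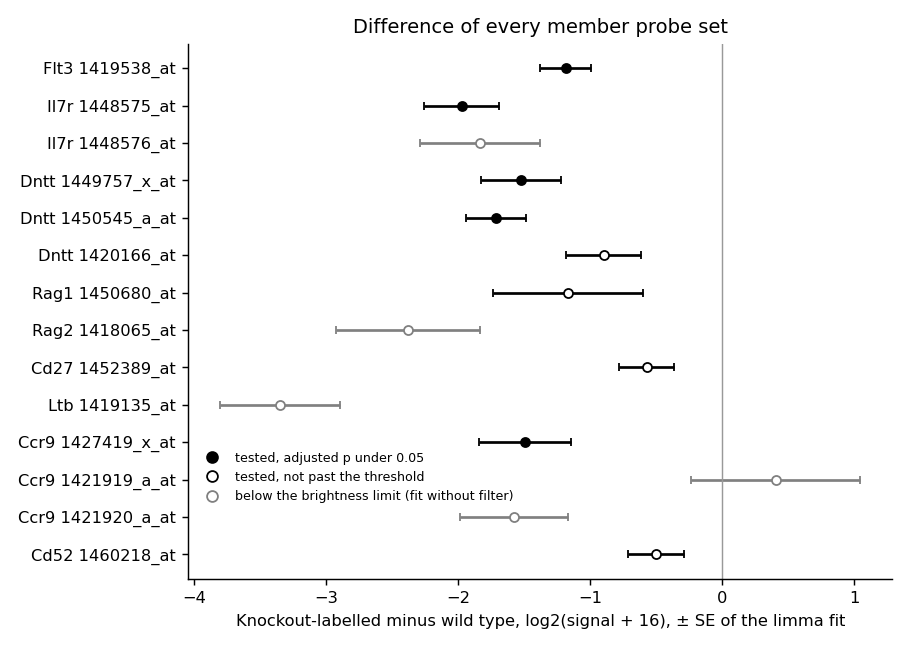
Difference of all 14 member probe sets, knockout-labelled minus wild type on the log2(signal + 16) scale (x axis), with the SE of the limma fit as bars; grey symbols are probe sets below the brightness limit, taken from the fit without that filter, where a group below the control level sets only a bound. Of the 14 probe sets 13 lie below 0, where 51.1% of all tested probe sets do. The filled ones are the 5 called among the 9 tested, of which that of Ccr9 reached the brightness limit only through its wild-type arrays. The exception is a Ccr9 probe set at or below the control level on every array.

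The probe sets of 1 gene ran the same way where they were measurable. Of the 9 tested probe sets 5 fell and 0 rose, and 6 fell in the paired fit, where the background over all tested probe sets was 3.53% lower and 2.36% higher. By gene the paired fit called 4 of 7. All these counts include the brightest probe set of Ccr9, which reached the brightness limit only through its wild-type arrays and so had to differ to be tested. The calls of the brighter Il7r probe set and of 1450545_a_at of Dntt held under all 18 alternative settings, with adjusted p up to 0.0197 and 0.0246. Flt3 held under 17 of 18, and its call ended where the paired fit was run without the brightness filter (adjusted p = 0.0611). With knockout 8 or with wild type 7 left out, 2 of the 7 genes were called, Flt3 and Il7r.

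**Figure D3:**
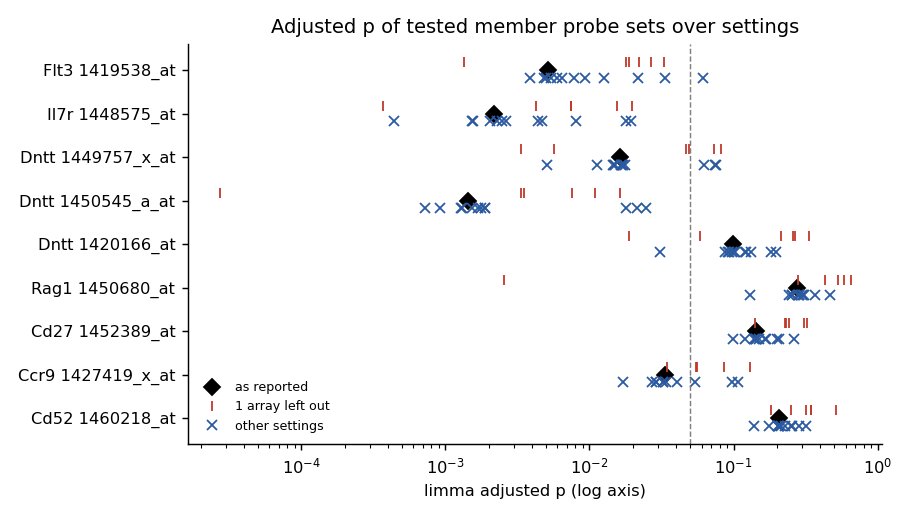
Adjusted p of the 9 tested member probe sets (log axis) as reported (diamonds), with 1 array left out (red ticks) and under the other settings (blue crosses); the dashed line is 0.05. 1448575_at of Il7r and 1450545_a_at of Dntt stay left of the line throughout, Flt3 crosses it in the paired fit without the brightness filter, and Rag1 crosses it only without wild type 8.

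The wild-type arrays were themselves graded. Wild type 5 was the highest wild-type array for 7 of the 9 genes and wild type 8 the lowest for 6, with medians over the 9 genes of 0.43, 0.11 and -0.39 for wild type 5, 7 and 8 relative to the wild-type mean of each gene (log2). The knockout-labelled arrays lay closer together, at -1.27, -1.36 and -1.52 for 5, 7 and 8, each being the lowest for 3 genes. For knockout 5 these genes were Cd27, Rag2 and Ltb. The knockout-labelled signals of Rag2 and Ltb were all at or below the control level, so their order among these arrays was not measured. Differences between arrays of the same number were below 0 in all 3 pairs for 8 genes, and Rag1 was the exception with 0.31 for number 8. These 8 are the genes without overlap between groups, for which every pairing of arrays gives that sign, so it adds no paired evidence. The pair numbered 8 had the smallest fall for 7 of the 9 genes, with a median difference of -0.97 against -1.90 and -1.59 for the pairs numbered 5 and 7. These include Rag2 and Ltb, whose knockout-labelled signals, and that of Rag2 on wild type 8, lie at or below the control level, so that their pair differences are not exact. Over the other 7 genes the pair numbered 8 had the smallest fall for 6, with medians of -1.38, -1.17 and -0.60 for 5, 7 and 8. Without wild type 8 the median of the tested genes was -1.66 and 5 of 7 were called. Without wild type 5 it was -0.82, but over 6 genes, as Ccr9 then fell below the brightness limit. With all arrays the median of the same 6 genes was -1.18. 

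**Figure D4:**
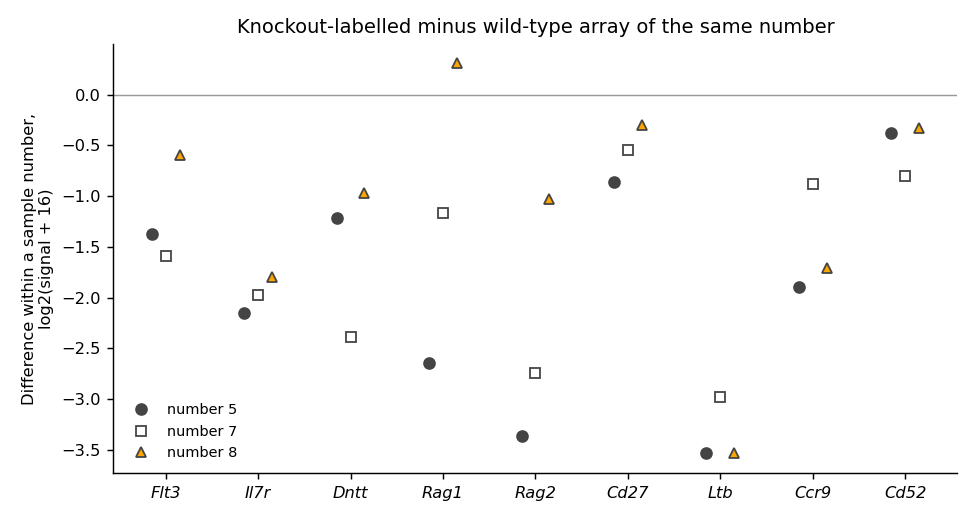
Knockout-labelled minus wild-type array of the same sample number for the brightest probe set of each gene (y axis, log2(signal + 16)); symbols give the number. All points except that of Rag1 for number 8, at 0.31, lie below 0, which for genes without overlap between groups holds under any pairing. The points of number 8 are the least negative for 7 of the 9 genes. The knockout-labelled signals of Rag2 and Ltb were at or below the control level, so their points are not exact.

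Markers of other cells moved on the same arrays. Of 18 listed T and NK cell markers 16 were measured and 6 tested, of which Klrd1 fell (-1.41 ± 0.33, limma adjusted p = 0.0312) and 0 rose, while Thy1 rose in the paired fit. The list was mixed, with 3 of the 6 below 0. At an unadjusted p under 0.05, 3 were lower and 2 higher, the latter being Thy1 and Nkg7 (0.82 and 0.50). The Klrd1 call ended without knockout 5, 7 or 8 or wild type 7 (adjusted p up to 0.149). Their summed signal was 5877 to 5945 on the knockout-labelled and 5734 to 6304 on the wild-type arrays, and Cd4 and Cd8b1 were at or below the control level on all 6 arrays. Of 12 listed B-cell and precursor markers 11 were measured and 8 tested, and 0 passed in limma (2 lower and 0 higher at an unadjusted p under 0.05, and Blnk lower in the paired fit, adjusted p = 0.0473). Their summed signal was 2449 to 3748 against 3332 to 4892. None of the 11 was at or below the control level on all arrays. Blnk and Igll1 are also active in lymphoid progenitors.

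Of 13 listed neutrophil markers 10 were tested, of which 5 fell and 1 rose (7 and 1 in the paired fit). The count that fell was 3 when any 1 of the arrays knockout 7 and 8 and wild type 5 and 7 was left out, as S100a8 and S100a9 were lost, and Camp reached the brightness limit only through its wild-type arrays. Their summed signal was 7577 to 15249.7 against 21192 to 42609, the highest value being that of wild type 5. Of 14 listed monocyte and macrophage markers 10 were tested, of which 0 fell and 4 rose (1 lower and 5 higher at an unadjusted p under 0.05), with sums of 32565 to 36771 against 22935 to 25971. Without knockout 7, knockout 8 or wild type 5 the count that rose was 2, Ccr2 and Ms4a6c, as Fcgr3 and Csf1r were lost. Of 6 listed plasma cell markers 5 were tested and 0 passed in limma (1 lower and 1 higher at an unadjusted p under 0.05, and Sdc1 lower in the paired fit), with sums of 26935 to 42284 against 24528 to 33502. Of 6 listed dendritic cell markers 4 were tested and 0 passed in limma (0 at an unadjusted p under 0.05), with sums of 5676 to 6903 against 6204 to 7531. The part of any of these cells in the member differences was not tested.

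Genes that work with the members were grouped in 4 lists. Over all 13575 tested probe sets, limma called 2.19% lower and 1.44% higher at an adjusted p under 0.05. At an unadjusted p under 0.05 the shares were 10.5% and 9.08%, and 51.1% of all tested probe sets lay below 0. Among regulators of lymphoid progenitors, 4 of 16 tested genes fell and 0 rose (12 lower at an unadjusted p under 0.05), all 16 lay below 0 and the median was -0.57. Ets1, an ETS factor of lymphocytes, fell by 1.19 ± 0.22 (SE), from 741 ± 66.0 to 316 ± 44.7 (SD, n = 3 each; limma adjusted p = 0.0120). Mef2c, a MADS-box factor that favours lymphoid over myeloid fate, fell by 1.15 ± 0.23 (0.0177). It read 7620.3, 7969 and 3965 on wild type 5, 7 and 8 and 2502, 3083 and 2832 on the knockout-labelled arrays, so that wild type 8 was again the lowest wild-type array. Satb1, a chromatin organiser, fell by 1.08 ± 0.18 (0.00601), and Notch1, the receptor that starts T-cell development, fell by 0.91 ± 0.21 (0.0334). Foxo3 and Bcl11a stood at -0.85 ± 0.23 and -0.63 ± 0.18 (0.0630 and 0.0702), and Foxo3 passed in the paired fit (0.0485). Satb1 passed with each array left out, and Ets1 was lost without wild type 7 (0.0557), which left 1 of the 16 called, and in the paired fit without the brightness filter (0.0737). For Mef2c, leaving out any array other than knockout 7 and wild type 8 ended the call (up to 0.0891), as did eBayes without trend and no brightness filter. Notch1 was lost with each array left out except wild type 8 (up to 0.151), with median centring, with eBayes without trend and without the brightness filter.

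Among partners of FLT3 and of the cytokine receptors that use the common gamma chain, 0 of 16 tested genes passed in limma (5 lower and 0 higher at an unadjusted p under 0.05), 8 lay below 0, and the median was -0.01. Il15ra, a receptor chain for interleukin-15, stood at -1.12 ± 0.35 (adjusted p = 0.0947), reached the brightness limit only through its wild-type arrays and passed in the paired fit (0.0349). Jak1, the kinase bound to the interleukin-7 receptor alpha chain, read 7170.2, 7781 and 7669.7 on wild type and 5113, 5752 and 5414 on knockout-labelled arrays. The groups did not overlap, and the difference was -0.47 ± 0.14 (limma adjusted p = 0.0890). Pik3r1, Gab2 and Cish stood at -0.76, -0.65 and -0.45 and Grb2 at 0.32 (adjusted p from 0.130 to 0.389). Jak3, Stat5a and Stat5b, which act downstream of the same receptors, stood at 0.28, 0.13 and -0.12. These 3 were picked with their values known. Besides Jak1, the named genes Il15ra, Pik3r1, Gab2 and Cish, and also Cbl, were lower without overlap, and Grb2 and Jak3 were higher without overlap. Over all tested probe sets 12.1% were lower without overlap, and the share higher was not computed. The named genes were picked by small p or with their values known, so their lack of overlap is not a separate result.

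In the list of V(D)J recombination and end joining genes, 1 of 8 tested genes fell and 0 rose (3 lower at an unadjusted p under 0.05), with a median of -0.26. It was Xrcc5, which encodes the larger Ku subunit, at 753, 1027 and 1094 on wild type 5, 7 and 8 against 476, 524 and 499 on the knockout-labelled arrays. The groups did not overlap, with a gap smaller than the range of the wild-type arrays, and Xrcc5 fell by 0.90 ± 0.22 (SE, limma adjusted p = 0.0354). But it passed only without wild type 5 among the single arrays left out (up to 0.148) and not with median centring, with eBayes without trend or without the brightness filter. Xrcc6, the other Ku subunit, stood at -0.56 ± 0.17 (0.0938), and Atm, Xrcc4, Poll and Nhej1 at -0.42, -0.36, 0.32 and -0.15 (0.233 to 0.827). Among partners of the TNF family and chemokine members, 0 of 10 tested genes passed in limma (1 lower and 0 higher at an unadjusted p under 0.05), with a median of -0.25. Tnf and Traf5 stood at -0.69 ± 0.31 and -0.59 ± 0.28 (adjusted p = 0.233 and 0.266), Siva1, Traf2, Ltbr and Map3k14 at 0.30, -0.30, 0.29 and -0.31, and Ccr7 was at or below the control level on all arrays.

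**Figure D5:**
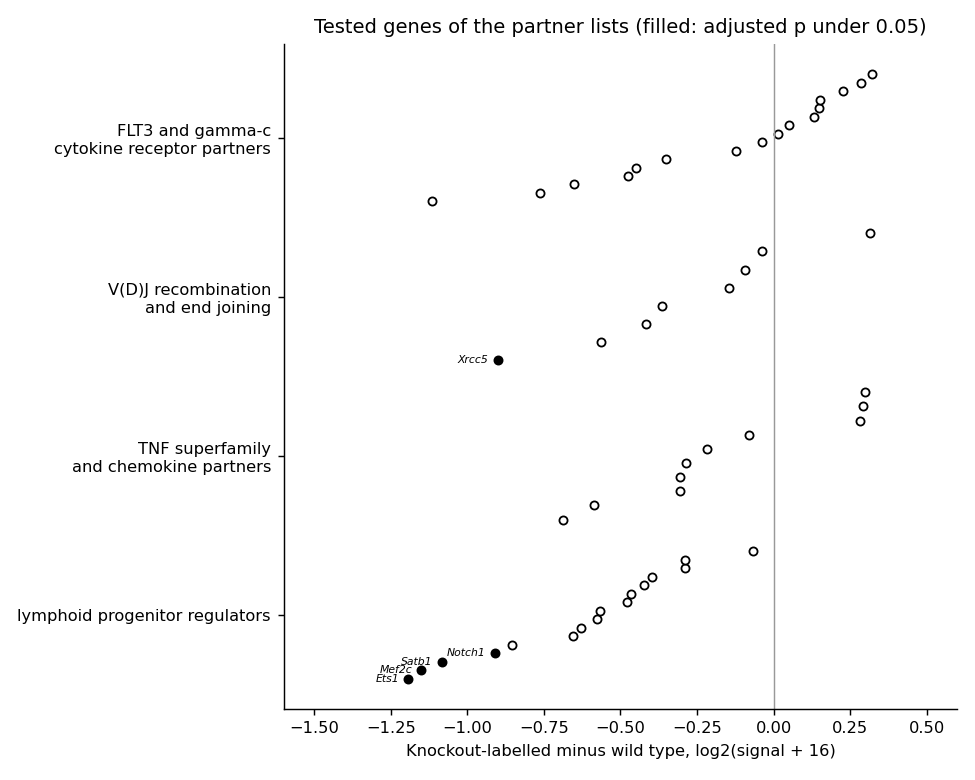
Difference of the tested genes of the 4 partner lists, knockout-labelled minus wild type on the log2(signal + 16) scale (x axis), sorted within each list; filled points passed an adjusted p of 0.05 and are named. All 16 lymphoid regulators lie below 0, while 8 of the 16 cytokine receptor partners do.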

How the data were processed

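RNA from 6 LSK samples was hybridised to 1 array each. The authors' deposited values are linear intensity values, 1 signal per probe set, made with MAS5 per the submitters' processing notes, with version and settings not given in the sources used here. The trimmed mean (2% from each end) of each array was between 999.909 and 999.918, so arrays had been scaled. The number of arrays limits the precision.

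Signals were turned into log2(signal + 16) and not normalized again. Probe sets in the top 60% by mean log2 value (mean signal above about 198.5) were tested with limma 3.58.1 (R 4.3.3; lmFit, eBayes with trend, two-sided), with Benjamini-Hochberg adjustment over 13575 probe sets; the fit was tested on simulated data. Folds on this scale understate changes of dim probe sets. "At least" folds set the mean log2 signal of the brighter group against the control level. Genes were named by platform annotation and led by their brightest probe set. Named were all member probe sets and, of each partner list, up to 6 genes with the smallest p. Jak3, Stat5a and Stat5b, and Ccr7 as a dim gene, were named in addition. Members and lists were chosen with earlier results of these data known. Of 24, 12, 19 and 23 genes on the partner lists 22, 9, 15 and 21 were measured.

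As a pairing check, the deviations of same-numbered samples from their group means had correlations of 0.159, 0.168 and 0.238 for numbers 5, 7 and 8, against -0.134 to -0.0307 for different numbers. Deviations cancel out within a group, so positive same-number values push the others towards negative values. The contrast is thus partly built in. The numbers were taken as pairs on this limited ground, and the labels do not state it. Alternatives were the sample number as a block (the paired fit), pseudocounts of 1 and 64, no filter, the brightest 40%, 3 normalizations, eBayes without trend, gene means, each array left out and, added after seeing the data, a filter on linear means, signals raised to the control level and the block without the filter.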

Additional observations from a re-analysis of the deposited data

How the results depend on the processing

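Members called lower numbered 4 of 7 in the reported fit, 2 with eBayes without trend, 2 (Il7r and Ltb) with the replicate block and no filter, and 2 to 5 with single arrays left out, being 2 without knockout 8 or wild type 7. Over all 9 genes without the brightness filter, with or without the block, the median difference of the members was -1.49. There Ltb and Rag2 enter with signals below the control level, and with both set against that level the median was -1.19. With single arrays left out the median of the tested members ran from -1.66 to -0.82. The last value, without wild type 5, is over 6 genes, as Ccr9 was then below the brightness limit. All probe sets called lower numbered 297 as reported, 119 without the filter, 193 with median centring, 124 without trend, 479 with the replicate block, 93 with the block and no filter, and 89 to 288 with single arrays left out. Those called higher numbered 196, and 69 without the filter, 57 without trend, 320 with the replicate block, 44 with the block and no filter, and 35 to 270 with single arrays left out. Leaving out an array lowers the number of samples, and dropping the filter raises the number of tests adjusted over; otherwise the cause was not tested. No tested member probe set changed sign under any setting in which that probe set was fitted. With the brightness filter, the replicate block changed no call among members except that of 1420166_at of Dntt, and without the filter it ended that of Flt3 (0.0216 without the block, 0.0611 with it). Averaging all probe sets of a gene left Ccr9 below the brightness limit and 3 genes called. Signals near the control level limit what can be said of Rag2, Ltb and Ccr9. In the reported fit Ccr9 is among the 4 called, though it reached the brightness limit only through its wild-type arrays.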
